A study of Rattus norvegicus with 18 samples.

Results

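The 8 genes described here carry the MHC class II system of the rat, and were taken by their gene symbol in the platform annotation out of 14506 measured genes. They are the antigen-binding chains RT1-Da, RT1-Db1, RT1-Ba and RT1-Bb, the peptide exchange factor genes RT1-DMa and RT1-DMb, the invariant chain gene Cd74 and the class II transactivator gene Ciita. Each had 1 probe set, and all 8 reached the filter on dim values that left 11370 genes for testing. They were measured with Affymetrix arrays in RNA of medullary thyroid carcinoma, a tumour that arises from C cells (the thyroid cells that secrete calcitonin), from 18 MENX rats of the strain Sprague–Dawley white eye/Wistar–Kyoto. All animals carried mutant Cdkn1b, which encodes the cell cycle inhibitor p27Kip1, and none was treated. Homozygous mutants of 9 months, heterozygous mutants of 9 months and heterozygous mutants of 18 months gave 6 tumours each. Wild type rats and normal thyroid were not analysed here. Every array has an animal code of its own in the labels, so an SD below is the spread between tumours of different animals.

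Class II molecules are pairs of an alpha and a beta chain that show peptides from engulfed proteins to CD4 T cells. The invariant chain holds the pair together and blocks its groove until it reaches the endosome, where DM trades the last piece of the invariant chain for a peptide. Dendritic cells, macrophages and B cells make class II constantly, many other cells only after interferon gamma, and in both cases the transactivator switches on the genes of the chains, of DM and of the invariant chain together. In the rat, the D and B pairs (RT1-Da with RT1-Db1, RT1-Ba with RT1-Bb) correspond to human DR and DQ.

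The transactivator does not bind DNA itself. It docks on proteins that sit on 2 short elements in front of these genes, the X box, bound by the RFX complex, and the Y box, bound by NF-Y. Promoter windows of 300 bases (250 before to 50 after the start) were given by RefSeq (GRCr8) for 6 of the 8 genes. The 5 windows from the class II region are shown because all 5 hold the Y box letters and 4 of them the X box letters too. They read 5′ to 3′ on the gene's strand, with the letters ACNGATG (inside the X box) and TGATTGG (Y box) in capitals.

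RT1-Da, chr20:4515165-4515464, plus strand: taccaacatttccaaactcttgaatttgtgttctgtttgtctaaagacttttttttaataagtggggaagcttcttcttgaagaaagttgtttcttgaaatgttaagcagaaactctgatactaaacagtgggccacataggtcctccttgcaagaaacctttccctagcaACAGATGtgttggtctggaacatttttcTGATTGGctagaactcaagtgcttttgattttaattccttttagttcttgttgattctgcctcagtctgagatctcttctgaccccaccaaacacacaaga
RT1-Db1, chr20:4560113-4560412, minus strand: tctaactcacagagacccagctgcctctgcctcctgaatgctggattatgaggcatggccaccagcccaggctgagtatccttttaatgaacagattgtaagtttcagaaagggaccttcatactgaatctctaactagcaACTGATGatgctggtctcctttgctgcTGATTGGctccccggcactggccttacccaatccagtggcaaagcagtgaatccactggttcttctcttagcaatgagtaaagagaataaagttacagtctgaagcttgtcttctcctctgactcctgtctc
RT1-Ba, chr20:4576807-4577106, plus strand: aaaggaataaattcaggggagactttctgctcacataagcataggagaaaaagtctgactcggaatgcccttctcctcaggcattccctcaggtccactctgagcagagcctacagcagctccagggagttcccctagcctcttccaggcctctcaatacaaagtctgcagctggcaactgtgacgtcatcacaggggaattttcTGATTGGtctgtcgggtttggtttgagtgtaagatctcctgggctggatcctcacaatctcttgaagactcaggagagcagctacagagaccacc
RT1-Bb, chr20:4604069-4604368, minus strand: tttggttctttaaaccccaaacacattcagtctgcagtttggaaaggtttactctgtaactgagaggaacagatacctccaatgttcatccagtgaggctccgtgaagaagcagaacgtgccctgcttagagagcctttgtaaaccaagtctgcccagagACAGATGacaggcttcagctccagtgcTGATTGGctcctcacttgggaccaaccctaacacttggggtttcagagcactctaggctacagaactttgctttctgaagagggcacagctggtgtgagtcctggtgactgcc
RT1-DMa, chr20:4712286-4712585, minus strand: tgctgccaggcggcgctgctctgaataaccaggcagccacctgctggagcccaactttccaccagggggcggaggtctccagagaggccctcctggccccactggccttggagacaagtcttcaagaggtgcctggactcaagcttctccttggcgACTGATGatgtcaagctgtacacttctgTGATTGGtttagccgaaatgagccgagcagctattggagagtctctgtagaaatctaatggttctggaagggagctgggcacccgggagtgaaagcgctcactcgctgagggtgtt

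The Y box letters stood 45 to 82 bases before the start, and the X box letters, where present, 20 or 21 bases ahead of the Y box. In the window of RT1-Ba the X box letters were not found. Neither motif was found in the window of Cd74. Both strands were searched, the 2 motifs do not overlap in these windows, and the letters were chosen with these sequences in view. Among 33469 rat promoter windows of the same length, 7.06% held the Y box letters, 10.2% the X box letters and 0.0657% both, with the X box at most 40 bases ahead of the Y box. Those last were 22 windows, and 6 of them belonged to the class II genes RT1-Da, RT1-Db1, RT1-Db2, RT1-Bb, RT1-DMa and RT1-DOb. A match in letters is a description of the sequence and not a measured binding site.

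The RNA held transcripts of C cells and of other tissue. Calca, which encodes calcitonin, lay between 13.7 and 14.1 on the log2 scale in all 18 tumours. Tg, a marker of thyroid follicular cells, had a mean of 14.3 in both 9-month groups and 13.6 at 18 months. That last mean was pulled down by 18-month tumour 1 at 11.1, with the next lowest at 13.9 and a median of 13.98. The mean of 3 parathyroid markers ran from 8.53 to 12.87 over the tumours, and that of 7 skeletal muscle markers from 6.94 to 11.96. Array medians ran from 7.548 to 7.653, so overall brightness differed little. On the first principal component (63.9% of the variance) the 18-month tumours 1, 2, 3 and 6 lay between 35.8 and 69.9, whereas 18-month tumours 4 and 5 lay at -11.7 and 4.21, near the 9-month tumours. Homozygous tumour 3 lay at 23.95, above the other 9-month tumours. Without homozygous tumour 3 no class II gene passed the test in any comparison below, and the values without 18-month tumours 4 and 5 are given with the age comparison. Values are log2 expression as deposited, and a difference of 1 is a doubling. Each probe set has its own brightness, so levels are compared between tumours for 1 gene and never between genes.

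Between homozygous and heterozygous tumours of 9 months no class II gene differed beyond the spread between tumours. The alpha chain RT1-Da measured 9.00 at its lowest, 9.86 at the median and 10.3 at its highest in homozygous tumours, and 9.67, 9.77 and 10.1 in heterozygous ones. The heterozygous values lay inside the range of the homozygous values, whose lowest (tumour 1) stood well below the next at 9.77. The difference, homozygous minus heterozygous, was -0.04 (95% interval -0.43 to 0.35, SE 0.19, limma adjusted p = 0.958). Its partner RT1-Db1 ran from 8.23 through 8.47 to 8.68 in homozygous and from 8.26 through 8.45 to 8.82 in heterozygous tumours, and the groups overlapped almost completely. The adjusted p of RT1-Db1 was 0.962 (limma). The annotation gave no probe set to its neighbouring copy RT1-Db2. Whether the probe set of RT1-Db1 also measured RT1-Db2 could not be checked.

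The B pair repeated this. RT1-Ba measured 9.08, 9.54 and 9.96 (lowest, median and highest) in homozygous and 9.54, 9.58 and 9.79 in heterozygous tumours of 9 months, a difference of -0.07 (SE 0.13). RT1-Bb measured 8.94, 9.49 and 9.73 in homozygous and 9.09, 9.29 and 9.78 in heterozygous tumours, a difference of 0.09 (SE 0.17). In both genes homozygous tumour 1 was the lowest of its group. For RT1-Ba 3 homozygous tumours lay below all heterozygous ones and 2 above them all, and for RT1-Bb 1 lay below and none above. Limma adjusted p-values were 0.885 for RT1-Ba and 0.889 for RT1-Bb.

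DM and the invariant chain were as close between the genotypes. RT1-DMa, the DM alpha chain, ran from 10.1 through 10.2 to 10.9 in homozygous and from 10.2 through 10.3 to 10.6 in heterozygous tumours. RT1-DMb, the DM beta chain, ran from 8.39 through 8.84 to 9.14 and from 8.78 through 8.87 to 9.07. Homozygous tumour 5 was the highest for both, and the groups overlapped. For Cd74 the homozygous tumours ran from 11.9 through 12.5 to 12.8 and the heterozygous tumours from 12.2 through 12.4 to 12.7, and 2 homozygous tumours lay above all heterozygous ones. The differences were -0.04 (SE 0.14) for RT1-DMa, -0.08 (SE 0.11) for RT1-DMb and 0.10 (SE 0.15) for Cd74, with limma adjusted p from 0.847 to 0.943.

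Ciita had the largest difference of the 8 between the genotypes. Its values ran from 6.56 through 6.76 to 6.81 in homozygous and from 6.56 through 6.89 to 6.92 in heterozygous tumours of 9 months, with 5 of 6 heterozygous tumours above every homozygous one and the last (tumour 6) as low as the lowest. The difference was -0.13 (95% interval -0.31 to 0.05, limma adjusted p = 0.653). In this comparison 0 of the 8 genes passed the test, and 0 had an unadjusted p under 0.05. The background was 0% called (0 of 11370 genes), with 8.75% of genes at an unadjusted p under 0.05. The median of the 8 differences was -0.04 against 0.0022 over all genes tested, and their 95% intervals together spanned -0.43 to 0.44. The count of 2 higher and 6 lower rests on 1 tumour, since without homozygous tumour 1 it was 6 higher and 2 lower (median 0.03).

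**Figure D1:**
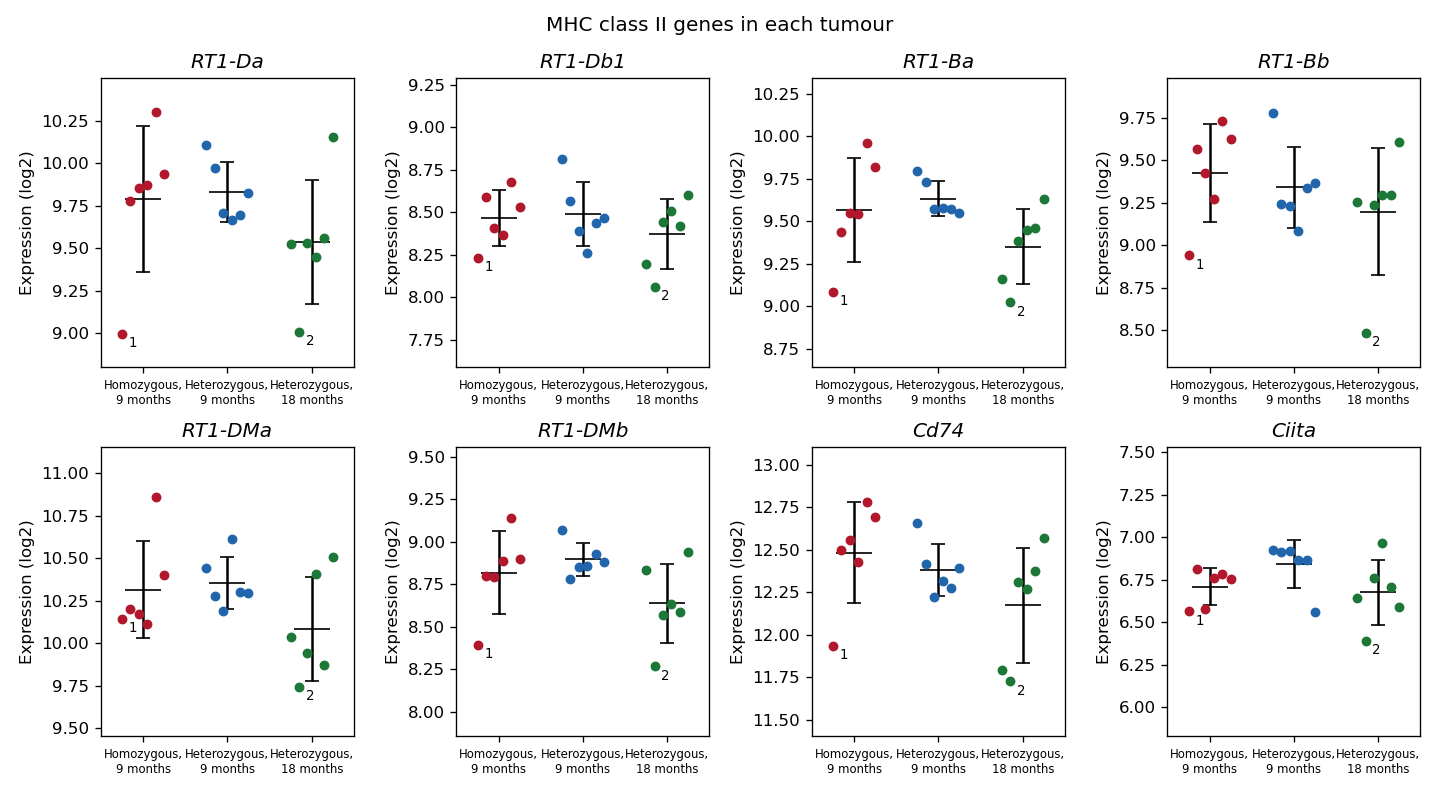
Log2 expression (vertical axes, which differ between panels) of the 8 class II genes, 1 point per tumour, with long bars for group means and error bars for 1 SD (n = 6 a group). The points marked 1 and 2 are homozygous tumour 1 and 18-month tumour 2, which stand at the bottom of their groups for 7 and 8 of the 8 genes.

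With age, all 8 class II genes measured lower in heterozygous tumours of 18 months than in those of 9 months, by 0.12 to 0.29 on the log2 scale, and none passed the test. All 8 also measured lower after median centring and after a further quantile normalization. The background of this comparison was 44.1% of genes called (22.4% lower, 21.6% higher), so 0 of 8 lies below the share of all genes. The median of the 8 differences was -0.23 against -0.0045 over all genes. An unadjusted p under 0.05 was reached by 2 of the 8 (RT1-Ba and RT1-DMb), against 51.4% of all genes.

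RT1-Da ran from 9.01 through 9.53 to 10.2 in the 18-month tumours. Of these, 5 of 6 lay below every 9-month heterozygous tumour (lowest 9.67) and the other one, tumour 6, lay above them all. The difference, 18 minus 9 months, was -0.29 (95% interval -0.68 to 0.10, SE 0.19, limma adjusted p = 0.217), or 0.82-fold. RT1-Db1 ran from 8.06 through 8.43 to 8.60 at 18 months, with 2 of 6 tumours below the 9-month range, and differed by -0.12 (SE 0.10, limma adjusted p = 0.390).

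RT1-Ba had the same form, with 9.02, 9.41 and 9.63 as the lowest, median and highest value at 18 months. Again 5 of 6 tumours lay below the lowest 9-month heterozygous tumour (9.54), and tumour 6 lay within that range. The difference of -0.28 had a 95% interval of -0.55 to -0.02 (SE 0.13, limma adjusted p = 0.0779). RT1-Bb, its partner, ran from 8.49 through 9.27 to 9.61, and its groups overlapped except for tumour 2 at 8.49. The difference of RT1-Bb was -0.14 (SE 0.17, limma adjusted p = 0.511), and without tumour 2 it was -0.0017.

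The DM genes lay near the B alpha chain. RT1-DMa ran from 9.74 through 9.99 to 10.5 at 18 months and RT1-DMb from 8.27 through 8.61 to 8.94. In each, 4 of the 6 tumours lay below every 9-month heterozygous tumour and the other two lay among them. RT1-DMa differed by -0.27 (SE 0.14, limma adjusted p = 0.134). RT1-DMb differed by -0.26 (95% interval -0.50 to -0.02, SE 0.11, limma adjusted p = 0.0749). Cd74 ran from 11.7 through 12.3 to 12.6 with 2 tumours below the 9-month range, and differed by -0.21 (SE 0.15, limma adjusted p = 0.281).

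Ciita at 18 months ran from 6.39 through 6.67 to 6.97. Tumour 2 was again the lowest, but the highest was tumour 4 and not tumour 6. The difference was -0.17 (95% interval -0.35 to 0.02, SE 0.09, limma adjusted p = 0.133).

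Several of these values lie near the threshold, and single tumours moved them over it. Without 18-month tumour 6, 3 genes passed (RT1-Ba, RT1-DMa and RT1-DMb, limma adjusted p 0.0447, 0.0484 and 0.0329). Without homozygous tumour 1, which enters only through the shared spread, 2 passed (RT1-Ba 0.0383 and RT1-DMb 0.0384). Ciita passed without 9-month heterozygous tumour 6 (adjusted p = 0.0400) or without 18-month tumour 4 (adjusted p = 0.0283), and without 18-month tumours 4 and 5 together (adjusted p = 0.0244). Without 18-month tumour 2, the median of the 8 differences was -0.15 and 0 passed. All 8 differences were below 0 whichever tumour was left out.

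**Figure D2:**
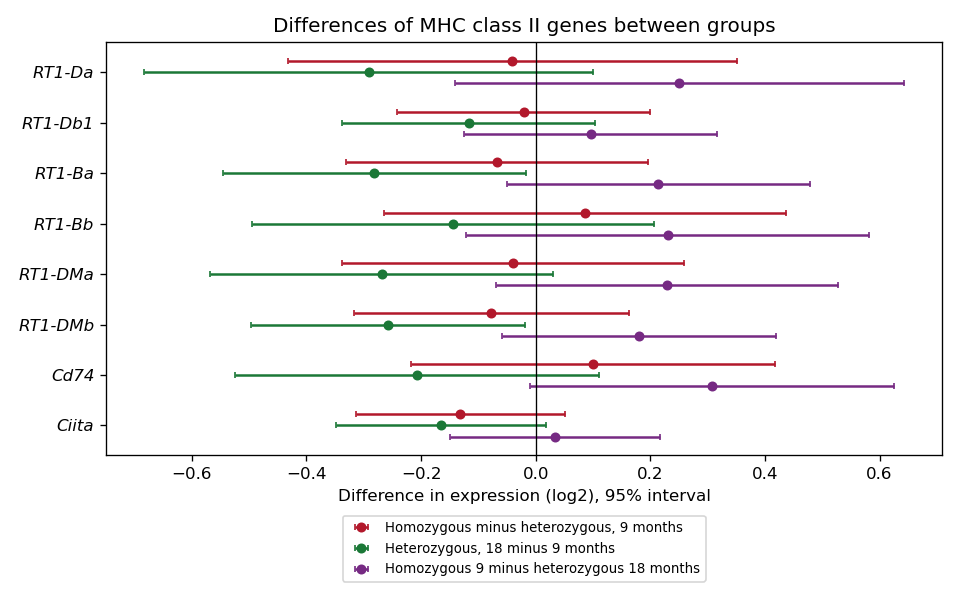
Differences of the 8 class II genes on the log2 scale (horizontal axis) in the 3 comparisons, with 95% limma intervals as error bars. All 8 age differences (green) lie below 0, from -0.29 to -0.12, and the intervals of RT1-Ba and RT1-DMb do not reach 0.

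Against the 18-month tumours, the homozygous tumours of 9 months measured higher in all 8 genes, by 0.03 (Ciita) to 0.31 (Cd74), with a median of 0.22 against 0 over all genes. This comparison shares its arrays with both others, so the counts are not independent of those above. Here 0 of 8 passed, against a background of 29.8% called (16.2% higher, 13.6% lower), and 0 of 8 had an unadjusted p under 0.05, against 41.8% of all genes. Cd74 came closest, with a mean of 12.5 ± 0.30 (SD, n = 6) against 12.2 ± 0.34 and a limma adjusted p of 0.131. Without 18-month tumour 2 the median was 0.13 and Ciita turned to -0.02. Without homozygous tumour 1, 2 genes passed (Cd74, adjusted p = 0.0363, and RT1-Ba, adjusted p = 0.0487). In the order of group means the 18-month tumours were last for all 8 genes, and the 9-month heterozygous tumours were first for 6 (all but RT1-Bb and Cd74). No neighbours in that order differed beyond their spread by the adjusted test.

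Tumours of the same group differed by more than the group means did. Homozygous tumour 1 was the lowest of its group for 7 of 8 genes and 18-month tumour 2 for 8 of 8. Homozygous tumour 5, 9-month heterozygous tumour 1 and 18-month tumour 6 were each the highest of their group for 7 of 8. The mean of the 7 genes other than Ciita, called the class II mean below, ran from 9.19 (18-month tumour 2) and 9.39 (homozygous tumour 1) to 10.001 (18-month tumour 6), 10.1 (9-month heterozygous tumour 1) and 10.2 (homozygous tumour 5). Group means of it were 9.84 ± 0.27 (homozygous), 9.85 ± 0.13 (heterozygous, 9 months) and 9.62 ± 0.26 (18 months, SD, n = 6 each).

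The spread differed between the genes. RT1-Da had the largest SD within groups, 0.341, which is the 83.2nd percentile of tested genes, and Ciita had the smallest, 0.15 (43.6th percentile), against a median of 0.163 over tested genes. The 9-month heterozygous tumours were the most alike for RT1-Da (SD 0.18 against 0.43 in homozygous and 0.37 in 18-month tumours). Over all tested genes this group was also the tightest, with a median SD of 0.107 against 0.160 and 0.191.

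Within groups the chains, DM and the invariant chain moved together from tumour to tumour. Pearson's r of values centred on group means (n = 18 tumours, which share their RNA and array) lay between 0.55 (RT1-Db1 with RT1-DMa) and 0.93 (RT1-Ba with Cd74) over 21 pairs, with a median of 0.80. RT1-DMa stood somewhat apart, with r of 0.55 to 0.68. Ciita followed less closely, with r of 0.32 to 0.52 and a median of 0.42. Its probe set was dim, with a mean of 6.74 over all arrays (36.35th percentile of probe sets) near the filter at 6.32. The part of this dimness in its lower r was not tested. In homozygous tumour 1 and 18-month tumour 2 the class II mean lay farthest from its group mean. Without these 2 tumours the 21 pairs ran from 0.35 to 0.86 (median 0.69) and those with Ciita from -0.14 to 0.28 (median 0.07). Because these 2 tumours were picked by that distance, leaving them out narrows the range and by itself tends to lower r. The drop therefore does not show where the relation with Ciita rests. Among the other 7 genes the correlation was present without the 2 tumours.

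**Figure D3:**
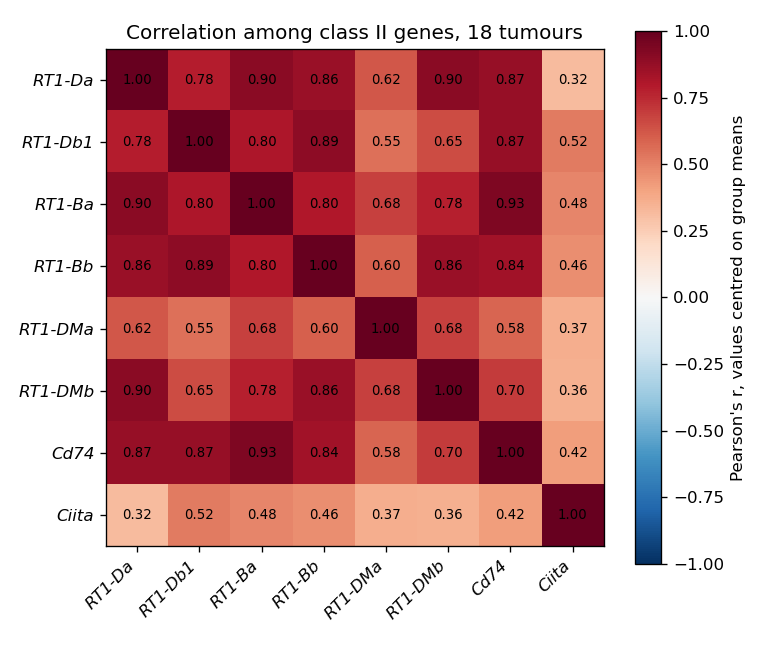
Pearson's r between the 8 class II genes over 18 tumours, from values centred on group means (colour and number in each square). The 7 genes of the chains, DM and the invariant chain are at 0.55 to 0.93 with each other. The row of Ciita, whose probe set lies near the filter on dim values, is at 0.32 to 0.52.

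The genes most like the class II mean were ranked by the same measure. The 10 with the highest r among 11362 other genes were Nckap1l (0.95), a subunit of the actin-regulating WAVE complex of blood cells, Lsp1 (0.91), a leukocyte actin-binding protein, Ifngr1 (0.90), the ligand-binding chain of the interferon gamma receptor, Slfn2 (0.89), Slfn4 (0.89), Pld4 (0.88), an endosomal nuclease, Il2rg (0.88), the chain shared by several interleukin receptors, Cd4 (0.88), the coreceptor that binds class II, Cyth4 (0.87) and Klrk1 (0.86), the receptor NKG2D. The r inside single groups (n = 6 each) makes up the r used for this ranking and is no separate support. In homozygous, 9-month heterozygous and 18-month tumours it was 0.99, 0.93 and 0.94 for Nckap1l. For Cd4 it was 0.94, 0.53 and 0.88. Without homozygous tumour 1 and 18-month tumour 2 the r of Nckap1l was 0.91. In all, 33 genes (0.29%) were above 0.8, and the median over all genes was 0.07. The 5 most opposite were Wnt3a (-0.81), a WNT ligand, Rps15a (-0.80), a ribosomal protein, Tmem215 (-0.79), Tex9 (-0.79) and Avpr1b (-0.77), a vasopressin receptor. Their rho was weaker, at -0.65 to -0.30.

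Marker lists place this against cell types. In RNA of whole tumours, fewer cells of a type and less RNA per cell cannot be told apart. The mean of 10 pan-leukocyte markers correlated with the class II mean at r = 0.80 (rho 0.83, n = 18, centred on group means, 0.81 without the 2 tumours named above). For 17 macrophage markers r was 0.72 (rho 0.57, 0.81 without the 2). Dendritic cell markers (11 genes) gave 0.42 and T cell markers (12 genes) 0.41, while B cell markers (7 genes) gave -0.11. The single genes of these lists disagreed. Dendritic cell markers ran from -0.70 (Cd209a) to 0.71 (Xcr1), and B cell markers from -0.60 (Blk) to 0.46 (Fcrla). T cell markers ran from -0.69 (Cd8b) to 0.88 (Cd4), with Cd3e at 0.07, Cd3g at 0.04 and Cd3d at -0.25. Stromal lists were also correlated, with fibroblast markers at 0.63 (rho 0.65, 0.44 without the 2) and endothelial markers at 0.50 (rho 0.59, 0.32 without the 2). C cell markers, which stand for the tumour cells, gave -0.15, follicular cell markers 0.15, mast cell markers -0.37, adipocyte markers 0.04, skeletal muscle markers -0.02 and parathyroid markers 0.09. Of the pathway lists, antigen processing gave 0.73, interferon gamma response 0.63, class I presentation 0.61, class II regulators 0.58 and costimulation 0.34. The mean of 3 other class II genes gave -0.65. Each of these genes was weaker alone, with RT1-DOb at -0.38, RT1-DOa at -0.31 and RT1-Ha, which lay below the filter on dim values, at -0.45. Single markers varied, from 0.23 (Cd48) to 0.84 (Dock2, a motility regulator) among the 10 pan-leukocyte genes, with Ptprc, which encodes CD45, at 0.83. The 17 macrophage genes ran from -0.41 (Marco, a scavenger receptor) to 0.78 (Csf1r, the receptor of macrophage growth factor).

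**Figure D4:**
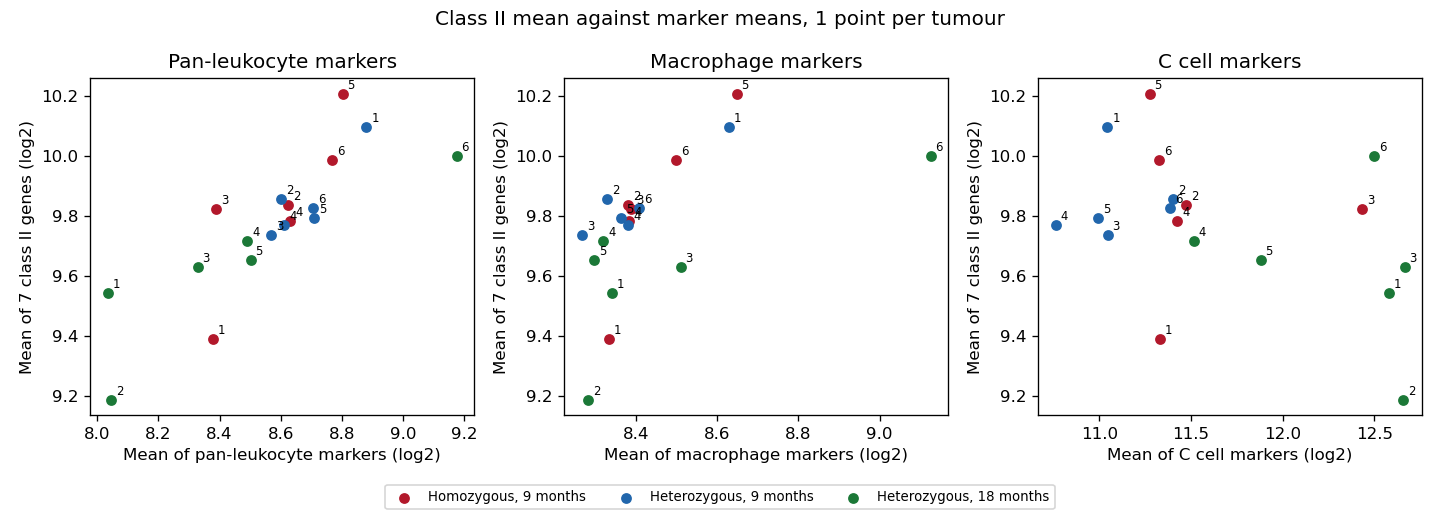
Mean log2 expression of the 7 class II genes other than Ciita (vertical axis) against the mean of pan-leukocyte, macrophage and C cell markers (horizontal axes), 1 point per tumour with its replicate number. The class II mean is higher where the pan-leukocyte mean is higher (r = 0.80 within groups), and 18-month tumour 6 has the highest pan-leukocyte and macrophage means, 9.17 and 9.13.

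The cell type lists are read against the 44.1% of all genes that passed in the age comparison (21.6% higher, 22.4% lower). Pan-leukocyte list means ran from 8.03 to 9.17 at 18 months and from 8.57 to 8.88 in 9-month heterozygous tumours. In that list 0 of 9 tested markers rose and 2 fell, the actin bundler Lcp1 (-1.21, SE 0.22) and the adhesion molecule Cd48 (-1.03, SE 0.22). Ptprc differed by -0.31 (SE 0.15, limma adjusted p = 0.0951). Of 8 dendritic cell markers 5 fell, among them Flt3 (-0.35), a receptor of dendritic cell growth, and Xcr1 (-0.50), a chemokine receptor. Of 17 macrophage markers 3 rose, the complement genes C1qa (0.53), C1qb (0.67) and C1qc (0.48), and 2 fell, Adgre1 (-0.69), which encodes F4/80, and Lyz2, a lysozyme (-0.33, named after its value was seen), with limma adjusted p of 0.00134 to 0.0278. B cell markers (3 tested) and T cell markers (8 tested) had no member past the test.

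The tissue lists differed in how many markers passed. Of 10 C cell markers 8 rose, of 10 follicular cell markers 9 fell, and of 12 endothelial markers all 12 fell. All 7 adipocyte markers fell too. Of 10 fibroblast markers 2 rose and 5 fell, and of 3 parathyroid markers 1 rose and 1 fell. Of 5 mast cell markers 2 fell, and of 7 skeletal muscle markers 1 fell. Follicular list means ran from 7.28 to 10.9 at 18 months against 11.04 to 11.14 in 9-month heterozygous tumours, and C cell list means from 11.5 to 12.7 against 10.8 to 11.4. The part of follicular, endothelial and C cell shares in the class II differences was not tested. With the pan-leukocyte list mean as a covariate, the median age difference of the 8 class II genes was -0.09 in place of -0.23, 6 were lower and 2 higher, and 0 passed. With the macrophage list mean as a covariate the median was -0.29 and 4 passed (RT1-Da, RT1-Ba, RT1-DMa and RT1-DMb, limma adjusted p 0.0146 to 0.0319). Skeletal muscle list means ran from 6.94 to 11.96 over all tumours. With muscle and parathyroid list means as covariates the median was -0.20, all 8 were lower and 0 passed.

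Of 15 regulators of class II tested, 2 rose and 4 fell with age, a share near the 44.1% called over all genes, so the counts are no result about the regulators. Those that fell were Nfyc (-0.34, SE 0.06) and Nfya (-0.35, SE 0.09), subunits of the NF-Y complex that binds the Y box shown above, Kat2b (-0.87, SE 0.19), a histone acetyltransferase, and Irf8 (-1.36, SE 0.31), a transcription factor of myeloid cells, with limma adjusted p of 0.000915 to 0.00527. The 2 that rose were Rfx5 (0.39, SE 0.11) and Rfxap (0.32, SE 0.08), subunits of the RFX complex that binds the X box, named after their values were seen. Irf8 ran from 7.54 through 8.45 to 9.69 at 18 months, below its whole range in 9-month heterozygous tumours, 9.79 to 10.4. The remaining subunit of NF-Y, Nfyb, was at 0.03 (SE 0.09), that of RFX, Rfxank, at -0.16 (SE 0.09) and Irf1, which interferon gamma induces, at -0.0063 (SE 0.10).

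The other pathway lists were likewise near or below the 44.1% of all genes called, and their counts are descriptions. Of 14 antigen processing genes 3 rose and 4 fell with age. Lgmn, an endosomal protease, rose by 0.78 (SE 0.16), from 9.43 to 9.84 in the 9-month heterozygous tumours to 9.97 to 10.7 at 18 months, with no overlap. Ifi30, the thiol reductase GILT, fell by 0.53 (SE 0.12), the protease Ctsh by 0.74 (SE 0.20) and the lysosomal membrane protein Lamp2 by 0.20 (SE 0.05), with limma adjusted p of 0.00143 to 0.00677 for these 4 genes. Ctss, the main invariant chain protease of antigen-presenting cells, was at 0.25 (SE 0.16, adjusted p = 0.220). Of 5 costimulation genes 2 fell, Cd83 (-0.65, SE 0.14), a marker of mature dendritic cells, and Icam1 (-0.52, SE 0.16), an adhesion molecule. Of 16 interferon gamma response genes 0 rose and 3 fell, Irf8, Icam1 and the kinase Jak2 (-0.68, SE 0.13). Class I presentation genes had 4 that rose, 3 that fell and 14 that did not pass, with RT1-CE16 (0.43), RT1-M3-1 (0.41) and Tapbp (0.30), the peptide loading factor tapasin, among the first and RT1-S3 (-0.65) among the second.

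Between the genotypes at 9 months, 0 members of any of these lists passed. The smallest p among regulators were those of Rfxap (0.22, SE 0.08) and Irf1 (0.20, SE 0.10), with limma adjusted p of 0.502 and 0.579. In antigen processing they were those of Lamp1 (-0.09, SE 0.05) and Ctsl (-0.20, SE 0.11), and among pan-leukocyte markers those of Lcp1 (-0.33, SE 0.22) and Cd48 (-0.22, SE 0.22).

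Neighbours on the chromosome had age differences of both signs. From RT1-Da to RT1-Ha RefSeq lists 16 protein-coding genes, of which 14 were measured and 13 tested. The 6 described here that lie there were all lower at 18 months. Of the 7 other tested genes 5 were higher and 2 lower. RT1-DOb, the beta chain of DO, which inhibits DM, rose by 0.64 (SE 0.23, limma adjusted p = 0.0336). It ran from 7.50 through 8.16 to 9.03 at 18 months and from 7.47 through 7.64 to 7.71 at 9 months in heterozygous tumours, so the groups overlapped and 18-month tumour 1 was the highest. Its r with the class II mean was -0.38. Its partner RT1-DOa was at -0.08 (SE 0.06). Tap1, one subunit of the class I peptide transporter, fell by 0.35 (SE 0.12, limma adjusted p = 0.0286), while its partner Tap2 was at 0.0075 (SE 0.06). The immunoproteasome subunits Psmb8 and Psmb9 were at 0.25 (SE 0.13) and 0.03 (SE 0.15), and Brd2, a chromatin reader, at 0.08 (SE 0.05).

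**Figure D5:**
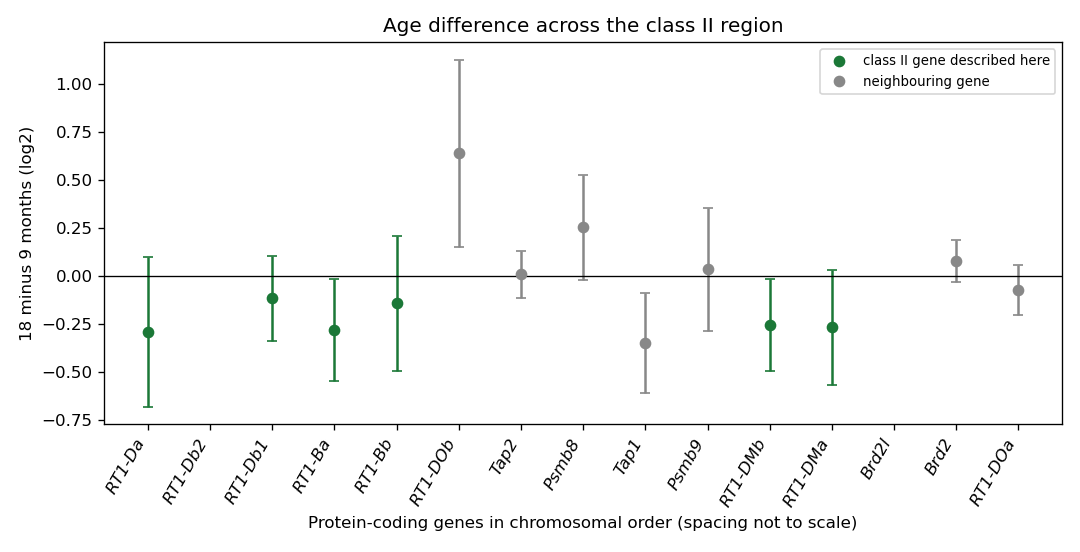
Age difference (18 minus 9 months, log2, vertical axis) of the protein-coding genes from RT1-Da to RT1-DOa in RefSeq order, with 95% limma intervals as error bars. The spacing is not to scale, RT1-Db2 and Brd2l had no probe set of their own symbol, the 6 class II genes lie at -0.29 to -0.12 and RT1-DOb lies at 0.64.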

How the data were processed

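Per the submitters' processing notes, the authors used RMA and the Affymetrix Expression Console (1.3.0.187) for the deposited log2 values, in an order not given in the sources used here. RNA was DNase treated, amplified and biotin labelled with NuGEN kits, per the labels' protocols. Arrays give no depth, so precision rests on how many there are.

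Of 29214 probe sets, 15310 had 1 gene symbol, 323 several and 13581 none in the platform annotation, which left 14506 genes (highest-mean probe set each). Testing took genes with a mean of at least 6.32, the 30th percentile over probe sets. Limma 3.58.1 (R 4.3.3) fitted 1 mean per group to all 18 arrays, two-sided, with Benjamini-Hochberg adjustment over 11370 genes and a threshold of 0.05. All SEs, intervals and adjusted p-values are from this fit. The procedure was tested on simulated data. An exact permutation test had been planned for class II genes described by themselves and for genes below the filter. It was not run. No class II gene described here lay below the filter, and their p-values are those of the limma fit.

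The members and lists were chosen with earlier results of these data known. Named besides the 8 were up to 4 called genes of a list with the smallest p (otherwise 2) and the 10 genes most like and 5 most unlike the class II mean. Genes of the class II region and leading genes of the pathway were named by their place or role. Alternatives were other filters, a fit of only the compared groups, a block for the replicate number, trend and robust moderation, array weights, centring, quantile normalization, mean of probe sets, marker list covariates and leaving out each array. Added after seeing the data were leaving out 2 pairs of tumours and the muscle and parathyroid covariates. The deviations of same-numbered tumours correlated at -0.29 to 0.35, and no comparison had an r over 0.1 in every pair (1, 4 and 2 of 6 pairs), so numbers were not treated as pairs.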

Additional observations from a re-analysis of the deposited data

Results flagged for a closer look

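Among 24 sets of 6 values (8 genes in 3 groups), 2 had an end value far from the others by Dixon's criterion (gap over range above 0.625), and chance flags about 1 in 20 such sets. RT1-Bb in 18-month tumour 2 measured 8.486, against 9.240 for the next lowest and 9.607 for the highest tumour of that group (gap over range 0.673). Ciita in 9-month heterozygous tumour 6 measured 6.559, against 6.863 for the next lowest and 6.923 for the highest (0.835). Without tumour 2 the age difference of RT1-Bb was -0.0017, and without tumour 6 that of Ciita was -0.22 with a limma adjusted p of 0.0400.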

How the results depend on the processing

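In the genotype comparison 0 class II genes passed under every alternative run, and none of the 255 gene values changed its side of the threshold, while the sign of the small differences did (171 lower, 84 higher, and 7 of 8 higher with array weights). Of all genes, 24 passed with only the compared groups in the fit, 118 with array weights, 7 without 18-month tumours 4 and 5, and 0 to 2 without single tumours. In the age comparison 253 of 255 values were lower at 18 months, and both exceptions came with the pan-leukocyte covariate (RT1-Bb 0.06, RT1-Db1 0.01). No class II gene passed in the fit reported, against 1 with only the compared groups (RT1-Ba), 2 with array weights (RT1-DMb, Ciita), 2 with quantile normalization (RT1-Ba, RT1-DMb), 4 with the macrophage covariate, 1 without 18-month tumours 4 and 5, and 0 to 3 without single tumours. Of all genes, 2542 passed with muscle and parathyroid covariates and 4290 to 5740 without single tumours, against 5009. Between homozygous 9-month and heterozygous 18-month tumours 254 of 255 values were higher, 1 class II gene passed with the macrophage covariate (Cd74) and 0 to 2 without single tumours. Of all genes there, 708 passed with only the compared groups, 5392 without 18-month tumours 4 and 5, 1076 without homozygous tumour 1 and 18-month tumour 2, 745 with muscle and parathyroid covariates and 2116 to 4702 without single tumours (2116 without 18-month tumour 2), against 3392. The cause of these changes was not tested. At the 50th percentile filter Ciita was not tested. The tallies over 255 values are not independent, because the 8 genes are correlated. Both filters, the block, moderation, the mean of probe sets, only the compared groups and leaving out the third group's tumours cannot change a difference. They repeat the value of the fit reported. No class II gene passed in the fit reported in any comparison, so these genes had no called direction to reverse. Directions of other called genes were not compared between alternatives gene by gene.

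With the replicate number as a block, 0 class II genes passed in any comparison, and 0, 4866 and 3433 genes passed in all. RT1-DMb and RT1-Ba then had limma adjusted p of 0.0916 and 0.0814 in the age comparison. The block changed no class II call. Of 6 same-numbered pairs, 1, 4 and 2 had an r over 0.1 in the 3 comparisons.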
